A study of Mus musculus with 9 samples.

Results

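The genes of antigen presentation were followed in livers of miR-122 knockout (KO) mice and of floxed littermates that served as controls (WT). They were taken from the gene symbols of the deposited table: every symbol beginning with H2-, the prefix of the mouse major histocompatibility complex (MHC), together with B2m, Tap1, Tap2, Tapbp, Cd74, Ciita, Nlrc5, Psmb8, Psmb9 and Psmb10. This gave 54 genes with 1 transcript each, of 30519 transcripts in the table: 39 of the class I route, 14 of the class II route, and H2-Ke6, an enzyme gene that lies in the complex but is no MHC molecule. miR-122 is the dominant microRNA of hepatocytes. PolyA RNA was sequenced from frozen liver powder that had not been crosslinked, of 4 KO mice (1 female, 3 males) and 5 WT mice (3 females, 2 males), all aged 6 weeks. Each animal is 1 replicate. The labels give no strain and no Cre driver and do not name the litters. Age and littermate status are described for other libraries of the series, made from the same livers, and were taken to hold for these.

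Class I molecules consist of a heavy chain and beta-2-microglobulin (B2m), and show peptides made in the cytosol to cytotoxic T cells. The peptides are cut by the proteasome, whose catalytic subunits can be exchanged for the immunoproteasome subunits Psmb8, Psmb9 and Psmb10. They are pumped into the endoplasmic reticulum by Tap1 and Tap2, and loaded with the help of tapasin (Tapbp). Nearly every nucleated cell, hepatocytes included, makes class I. Class II molecules pair an alpha with a beta chain, are escorted by the invariant chain Cd74, receive peptides in endosomes with the help of H2-DM, and are made mainly by dendritic cells, macrophages and B cells. Nlrc5 is the transactivator of class I genes and Ciita that of class II genes. In the liver the resident macrophages are the Kupffer cells.

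Promoters are shown for 4 members on chromosome 17 whose levels frame the results below: H2-D1, a classical class I heavy chain that was higher in KO, H2-Q10, a heavy chain secreted by hepatocytes that was lower, and the class II chain genes H2-Aa and H2-Eb1, both higher. The windows run from 250 bases before to 50 bases after the start of the gene, in its own direction (RefSeq, GRCm38.p6; chr17:35262844-35263143 plus, chr17:35469839-35470138 plus, chr17:34287774-34288073 minus and chr17:34305617-34305916 plus). Capitals mark matches on either strand to 5 words known from MHC promoters: CCAAT, the core of the Y box; TGACG, that of the X2 box; TNGNAAC, that of the X1 box; TTTCACTT, that of the interferon response element; and the palindromic kappa B site of class I genes, the longest run of capitals in H2-D1. In H2-Aa both strands match TGACG in overlapping letters.
H2-D1: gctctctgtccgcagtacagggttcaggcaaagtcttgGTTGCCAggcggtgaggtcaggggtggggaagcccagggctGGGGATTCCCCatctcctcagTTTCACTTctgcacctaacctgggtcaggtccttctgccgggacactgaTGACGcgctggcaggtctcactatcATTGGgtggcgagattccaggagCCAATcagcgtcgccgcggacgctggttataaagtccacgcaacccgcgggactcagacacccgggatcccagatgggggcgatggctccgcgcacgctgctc
H2-Q10: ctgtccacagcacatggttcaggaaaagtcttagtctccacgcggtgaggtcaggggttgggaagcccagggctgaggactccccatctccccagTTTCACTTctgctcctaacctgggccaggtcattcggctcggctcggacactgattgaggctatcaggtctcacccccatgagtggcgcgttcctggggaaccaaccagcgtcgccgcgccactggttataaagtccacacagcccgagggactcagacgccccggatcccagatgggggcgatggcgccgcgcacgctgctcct
H2-Aa: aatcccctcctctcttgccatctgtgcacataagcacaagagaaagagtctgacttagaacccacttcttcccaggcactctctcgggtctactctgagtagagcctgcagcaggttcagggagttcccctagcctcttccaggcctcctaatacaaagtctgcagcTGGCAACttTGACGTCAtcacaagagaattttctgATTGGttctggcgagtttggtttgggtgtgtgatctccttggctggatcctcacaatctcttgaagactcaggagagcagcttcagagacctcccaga
H2-Eb1: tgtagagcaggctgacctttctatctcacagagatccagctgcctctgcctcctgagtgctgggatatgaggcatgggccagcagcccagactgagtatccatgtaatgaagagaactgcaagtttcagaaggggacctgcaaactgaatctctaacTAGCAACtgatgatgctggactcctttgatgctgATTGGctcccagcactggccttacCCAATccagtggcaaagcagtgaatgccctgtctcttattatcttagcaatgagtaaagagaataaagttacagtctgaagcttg

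The H2-D1 window held all 5 words, whereas the H2-Q10 window held only TTTCACTT. In H2-Aa the X1, X2 and Y words followed in this order, beginning 83, 74 and 48 bases before the start. In H2-Eb1 the X1 word began 93 bases and the Y word 59 bases before the start, with a further Y word at 35, and no X2 word. Windows were found for 37 of the 54 members. Among 10 tested class I heavy chain genes with a window, CCAAT was present in 9, H2-Q10 being the exception, TTTCACTT in 8, TGACG in 6 and the kappa B site in 3 (H2-K1, H2-D1 and H2-Q6). Of 32851 windows of all genes, 37.4% held CCAAT, 1.60% TTTCACTT, 20.8% TGACG and 0.0304% the kappa B site. Among 8 class II genes with a window 7 held CCAAT and 5 held TNGNAAC, a word found in 35.2% of all windows and in 2 of the 10 class I windows. TGACG was in 1 of the 8 (H2-Aa), and TTTCACTT and the kappa B site in none. These are matches of letters and no measurement of binding.

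Values are normalised abundances per transcript, corrected for transcript length, so levels can be set side by side between the listed transcripts. Many members have further transcripts annotated in GENCODE M21 (16 in all for H2-K1, 8 for H2-Ab1 and 7 for Psmb8). Levels, sums and ratios of genes below are therefore those of the 1 listed transcript of each. A shift between transcripts of a gene was not tested. Their totals over the table ranged from 0.711 to 0.869 M (mega) in KO and from 0.873 to 1.17 M in WT libraries. The authors' mean log observation, read as normalised reads, corresponds to 17.7 M reads per library on the listed transcripts. The column of WT replicate 3 is named male, against its label as a female. In it the Y-linked genes Ddx3y, Eif2s3y and Uty were at or below 0.114, and they were at or above 2.36 in every library labelled male, so the label was kept. The genotype rests on the labels, since polyA RNA-seq does not measure the mature microRNA. Of 10950 transcripts that reached a mean of 1 over all libraries, 35.9% passed an adjusted p of 0.05 for genotype (limma on log2(abundance + 1), Benjamini-Hochberg), 21.4% higher and 14.5% lower in KO. With all libraries scaled to equal totals, an alternative setting used below, the median log2 fold change of all tested transcripts moved to 0.37 from 0.03. In bulk liver RNA, more cells of a type and more RNA per cell cannot be told apart.

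The tested class II genes were higher in every KO liver than in any WT liver. All 6 class II members that passed the filter were called higher, by 2.95-fold to 4.34-fold in the ratio of means, and none overlapped between the genotypes, against 19.0% of all tested transcripts with every KO value above every WT value. Their median log2 fold change was 1.75. The other 8 class II members lay under the filter, and no tested member of either class passed it through 1 genotype alone.

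The invariant chain Cd74 stood at 179, 227, 267 and 218 in KO replicates 1 to 4, against 65.5, 52.1, 42.3, 49.2 and 47.3 in WT replicates 1 to 5. The lowest KO liver, the female, was still well above the highest WT liver. The means of 223 ± 36.0 in KO (SD, n = 4) and 51.3 ± 8.71 in WT (SD, n = 5) gave a 4.34-fold difference and a log2 fold change of 2.10 ± 0.14 (SE; limma adjusted p = 8.23e-06).

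The alpha chain gene H2-Aa stood at 114, 142, 178 and 147 in KO, against 71.4, 59.7, 41.6, 40.6 and 33.5 in WT, 2.95-fold higher in the ratio of means (limma adjusted p = 0.000563). The beta chain gene H2-Ab1, whose product pairs with that of H2-Aa, stood at 105, 139, 159 and 115 in KO, against 48.2, 39.5, 24.96, 27.6 and 25.8 in WT, 3.90-fold higher. H2-Eb1, the beta chain gene of the E molecule, was 3.80-fold higher, at 90.9, 125, 143 and 112 in KO, against 44.2, 38.1, 23.1, 27.7 and 21.8 in WT. The 3 genes ordered the livers in the same way at the ends: KO replicate 3 was highest and KO replicate 1 lowest among KO, and WT replicates 1 and 2 were above the other 3 WT livers. Without these 2 WT livers, a setting added once the values were known, all 6 tested class II genes were still called. The alpha chain partner of H2-Eb1, listed as H2-Ea-ps and annotated as a polymorphic pseudogene, was at 0 in all 9 libraries. Summed over H2-Aa, H2-Ab1 and H2-Eb1, the level was 393 ± 70.2 in KO (range 311 to 480) and 114 ± 35.4 in WT (range 81.1 to 164). Cd74 amounted to 0.568 ± 0.0122 of this sum in KO livers and to 0.470 ± 0.0833 in WT livers, with the KO range of 0.556 to 0.581 inside the WT range of 0.380 to 0.583.

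**Figure D1:**
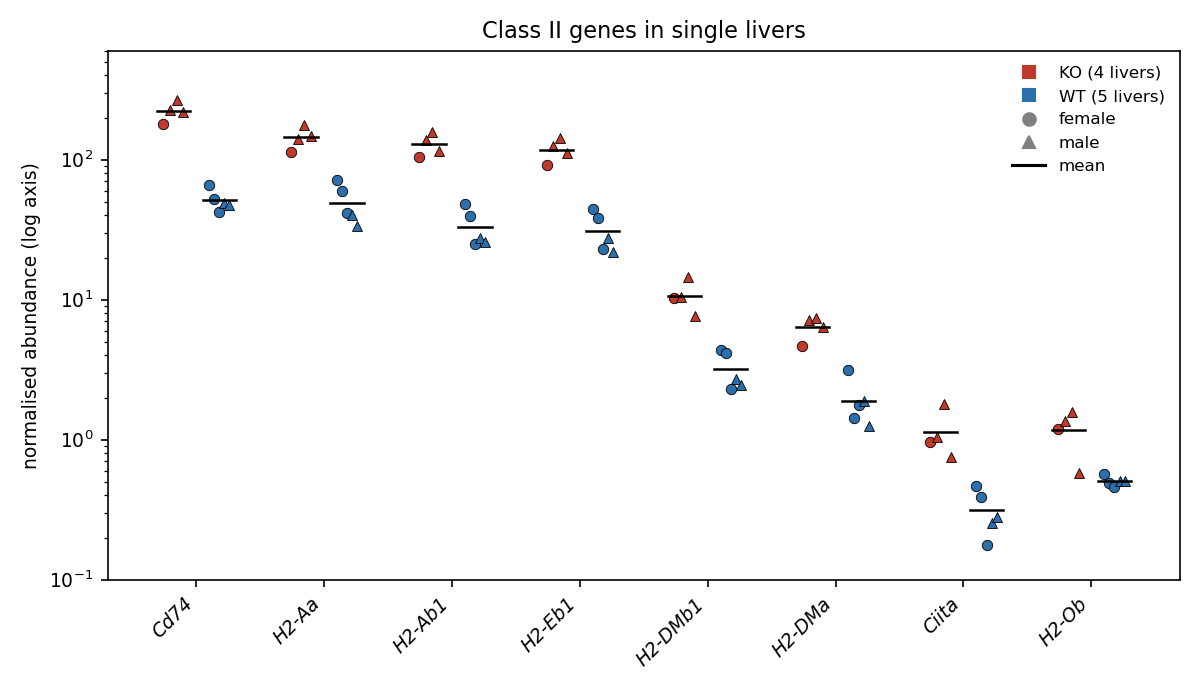
Normalised abundance (log axis) of 8 class II genes in each of 4 KO livers (red) and 5 WT livers (blue), with circles for females, triangles for males and a black line for the group mean. Every KO liver lies above every WT liver for each of these genes, from Cd74 at 179 to 267 in KO and 42.3 to 65.5 in WT down to Ciita at 0.749 to 1.80 in KO and 0.176 to 0.464 in WT.

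The peptide editor H2-DM, which swaps the invariant chain fragment for other peptides, rose in both of its tested chains. H2-DMa stood at 4.70, 7.16, 7.44 and 6.43 in KO, against 3.14, 1.44, 1.78, 1.88 and 1.25 in WT, 3.39-fold higher (limma adjusted p = 0.000475). H2-DMb1 averaged 10.7 ± 2.80 in KO and 3.21 ± 0.994 in WT, 3.33-fold higher, and 37.6% of its 31-base words also occur in H2-DMb2, so reads of these 2 can be shared.

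Ciita, the class II transactivator, lay under the filter, with about 94.0 normalised reads in KO and 25.8 in WT. It stood at 0.968, 1.04, 1.80 and 0.749 in KO, against 0.464, 0.392, 0.176, 0.255 and 0.281 in WT, without overlap and 3.64-fold apart in means. The authors' deposited table gave it a q of 1.8e-05, where 25.2% of transcripts with a q were called. With the filter lowered to a mean of 0.1, at which 21.0% of transcripts were called higher and 10.4% lower, Ciita was called (limma adjusted p = 0.00437), as were H2-DMb2 (0.00893) and the chains of H2-O, an inhibitor of H2-DM (H2-Oa 0.00354, H2-Ob 0.0164). H2-Oa averaged 0.941 in KO and 0.220 in WT, and H2-Ob 1.17 in KO and 0.506 in WT. The authors' deposited table did not call H2-DMb2 (q = 0.0779), H2-Oa (0.158) or H2-Ob (0.230). H2-Eb2 averaged 0.2496 in KO and 0.157 in WT and was called by neither test. The pseudogenes H2-Pa and H2-Pb were listed at 0.123 or less in every library, H2-Pb at 0 in all.

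Class I genes split. Of 24 members that passed the filter, 14 were called higher in KO, 1 lower and 9 neither, against 21.4% higher and 14.5% lower among all tested transcripts. The immunoproteasome, the peptide transporter and tapasin rose in every tested member, the most abundant heavy chain gene of the WT liver fell, and B2m and H2-K1 were not called. At least 2-fold higher in the ratio of means and called were 6 of the 24, as were all 6 tested class II members, against 8.54% of all tested transcripts. In 12 of the 24 every KO value lay above every WT value and in 1 below, against 19.0% and 12.1% of all tested transcripts. The median log2 fold change of the 24 was 0.66. The remaining 15 class I members had no library at 1 or above, among them 13 of the 14 H2-M genes.

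B2m, the light chain, was the most abundant member. It stood at 2638, 2625, 2849 and 3369 in KO, against 2990, 3030, 3001, 3268 and 3286 in WT. KO replicates 1, 2 and 3 lay below every WT liver and KO replicate 4 above every one. Its log2 fold change was -0.12, with a 95% interval of -0.36 to 0.11 (limma adjusted p = 0.382). Nlrc5 stood at 1.95, 2.32, 2.93 and 1.71 in KO, against 2.96, 2.30, 1.45, 1.29 and 1.43 in WT, and was likewise not called (log2 fold change 0.18, interval -0.24 to 0.60, limma adjusted p = 0.484).

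The classical heavy chain genes H2-K1 and H2-D1 differed from each other in their response. H2-K1 stood at 644, 772, 754 and 797 in KO, against 713, 765, 622, 612 and 606 in WT, with overlap and no call (log2 fold change 0.16, interval -0.07 to 0.40, limma adjusted p = 0.258). With equal totals it was called higher (log2 fold change 0.56, limma adjusted p = 0.0134). H2-D1 stood at 311, 360.1, 377 and 369 in KO, against 264, 290, 212, 213 and 214 in WT, without overlap and 1.48-fold higher (limma adjusted p = 0.0045). The ratio of H2-D1 to H2-K1 within a liver, which no scaling of libraries can change, was 0.478 ± 0.0169 in KO (range 0.463 to 0.4999) and 0.358 ± 0.0160 in WT (range 0.341 to 0.379). The ranges did not touch (exact permutation test over livers, two-sided, p = 0.0159, the smallest that 4 against 5 livers can give; adjusted p = 0.0159 over 5 ratios, all chosen after the data were seen). H2-D1 alone already did not overlap between the genotypes, so this p-value adds little to that separation. Of the 31-base words of H2-K1, 16.9% also occur in H2-D1, so part of their reads can be shared.

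H2-Q10 encodes a secreted class I molecule of the liver and was the one class I member called lower in KO. It stood at 870, 863, 729 and 974 in KO, against 1115, 1157, 1142, 1347 and 1244 in WT. The highest KO liver lay below the lowest WT liver, and the means were 1.398-fold apart (log2 fold change -0.49 ± 0.10, limma adjusted p = 0.00567). With equal totals its log2 fold change was -0.09 and it was not called (limma adjusted p = 0.517). Its ratio to H2-K1 was 1.17 ± 0.163 in KO and 1.83 ± 0.299 in WT, without overlap (exact permutation test over livers, two-sided, p = 0.0159, adjusted p = 0.0159). This ratio too was chosen after the data were seen, with a numerator that already did not overlap, so its p-value adds little. H2-Q10 made up 36.7 ± 3.13% of the summed class I heavy chain level in KO livers and 50.4 ± 4.52% in WT livers, while H2-D1 made up 15.2 ± 1.17% in KO and 9.96 ± 1.11% in WT. The sum itself was 2336 ± 151 in KO and 2388 ± 129 in WT, with overlapping ranges of 2195 to 2532 and 2222 to 2564. Without H2-Q10 it was 1477 ± 104 in KO and 1187 ± 154 in WT, and the ranges (1325 to 1559 in KO, 1067 to 1407 in WT) overlapped.

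**Figure D2:**
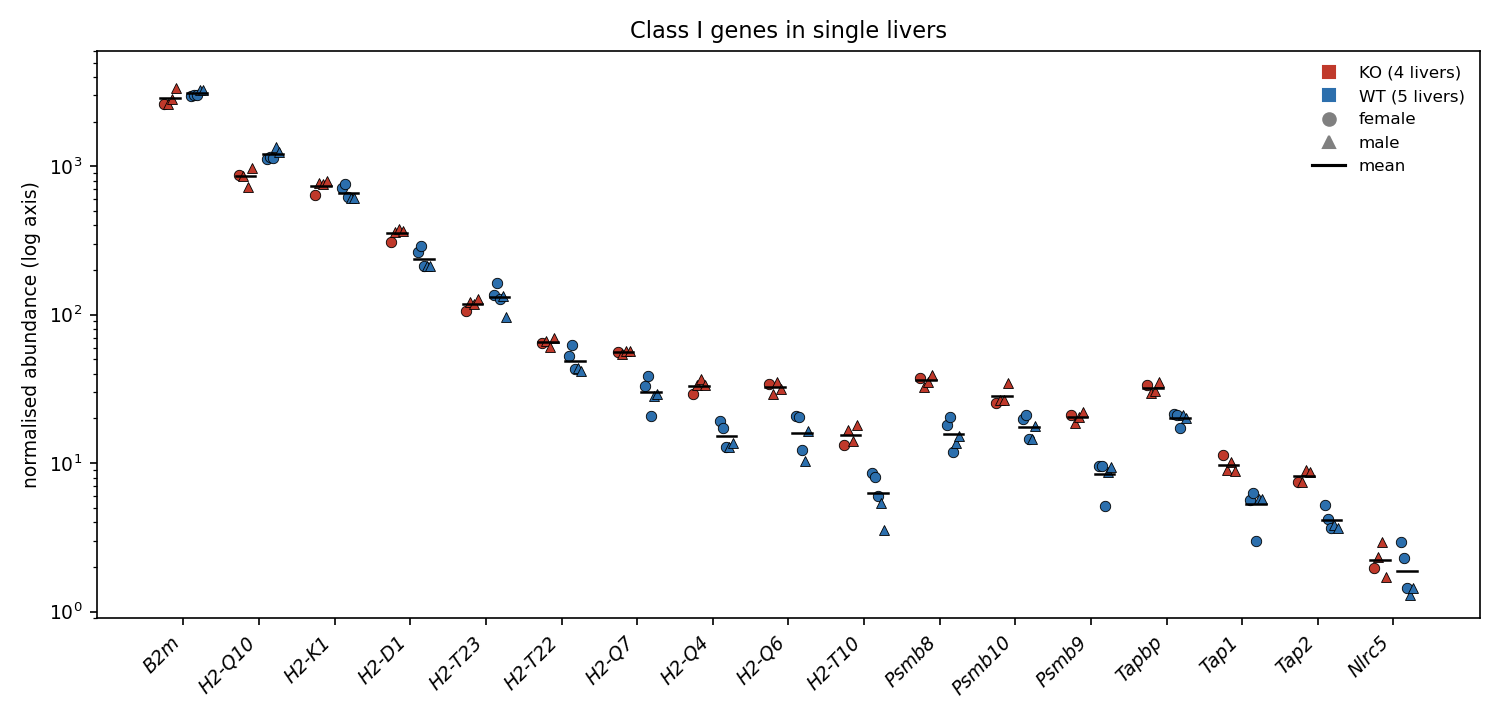
Normalised abundance (log axis) of 17 class I genes in each of 4 KO livers (red) and 5 WT livers (blue), with circles for females, triangles for males and a black line for the group mean. B2m, H2-K1, H2-T23 and Nlrc5 overlap between the genotypes, as does H2-T22, whereas H2-Q10 is lower in all KO livers and the immunoproteasome and transporter genes are higher in all of them.

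Of the 14 other heavy chains tested, 7 were called higher, 1 (H2-Q10) lower and 6 neither, against 21.4% higher and 14.5% lower over all tested transcripts. H2-Q7, the Qa-2 antigen gene, stood at 56.0, 54.4, 56.8 and 56.8 in KO, against 33.2, 38.9, 20.9, 28.5 and 29.4 in WT, 1.86-fold higher (limma adjusted p = 0.00142). H2-Q4 averaged 33.2 ± 3.12 in KO and 15.2 ± 2.90 in WT, and H2-Q6 averaged 32.5 ± 2.62 in KO and 16.0 ± 4.69 in WT, 2.19-fold and 2.03-fold higher. Neither overlapped between the genotypes. H2-T10 averaged 15.5 ± 2.21 in KO and 6.31 ± 2.05 in WT, 2.45-fold higher, and H2-Q2 averaged 6.65 ± 2.19 in KO and 1.51 ± 1.30 in WT, but was not called among males (limma adjusted p = 0.0901). Calls of 2 genes were fragile. H2-Q1 (limma adjusted p = 0.0209) was not called among males alone (0.294) or without KO replicate 1, 3 or 4 (up to 0.0595), and was not called in the authors' deposited table (q = 0.415). H2-T22 (limma adjusted p = 0.0218) missed the threshold without KO replicate 2, KO replicate 4 or WT replicate 3 (up to 0.0587). H2-T23, the Qa-1 gene, averaged 118 ± 9.76 in KO and 132 ± 24.1 in WT and was not called (limma adjusted p = 0.472). H2-Bl, H2-K2, H2-M3, H2-Q5 and H2-T24 were not called either. The copies resemble each other: over 16 tested heavy chain transcripts between 4.62% and 100% (median 34.6%) of the 31-base words occur in another gene. For H2-T10 and H2-T22 it is 56.6% and 56.1% with each other, and the 172-base transcript listed for H2-Q5 lies wholly within sequence of H2-Q7, so values of single members of this family are uncertain.

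The immunoproteasome subunits rose. Psmb8 stood at 37.4, 32.6, 35.1 and 39.2 in KO, against 17.9, 20.4, 11.9, 13.6 and 15.2 in WT, 2.28-fold higher (limma adjusted p = 0.000277). Psmb9 stood at 21.0, 18.6, 20.4 and 22.2 in KO, against 9.58, 9.52, 5.16, 8.73 and 9.41 in WT, 2.42-fold higher (0.000407). Psmb10 averaged 28.3 ± 4.27 in KO and 17.5 ± 2.95 in WT, 1.61-fold higher (limma adjusted p = 0.0044). For none of the 3 did the genotypes overlap. The constitutive subunits that they replace moved less: Psmb5 was 1.26-fold higher (128 ± 12.9 in KO, 101 ± 7.12 in WT, limma adjusted p = 0.0176), and Psmb6 (133 in KO, 129 in WT) and Psmb7 (158 in KO, 172 in WT) were not called (0.717 and 0.373). With equal totals all 3 constitutive subunits were called higher (limma adjusted p of 0.0469 or less). The ratio of Psmb8 to Psmb5 within a liver was 0.284 ± 0.0346 in KO and 0.157 ± 0.0381 in WT, that of Psmb9 to Psmb6 was 0.155 ± 0.0140 in KO and 0.0659 ± 0.0148 in WT, and that of Psmb10 to Psmb7 was 0.179 ± 0.0182 in KO and 0.103 ± 0.0235 in WT. Each of the 3 ratios was higher in every KO liver than in any WT liver (exact permutation test over livers, two-sided, p = 0.0159 for each, adjusted p = 0.0159). The ratios were chosen after the data were seen, with numerators that already did not overlap, so these p-values add little to that separation.

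**Figure D3:**
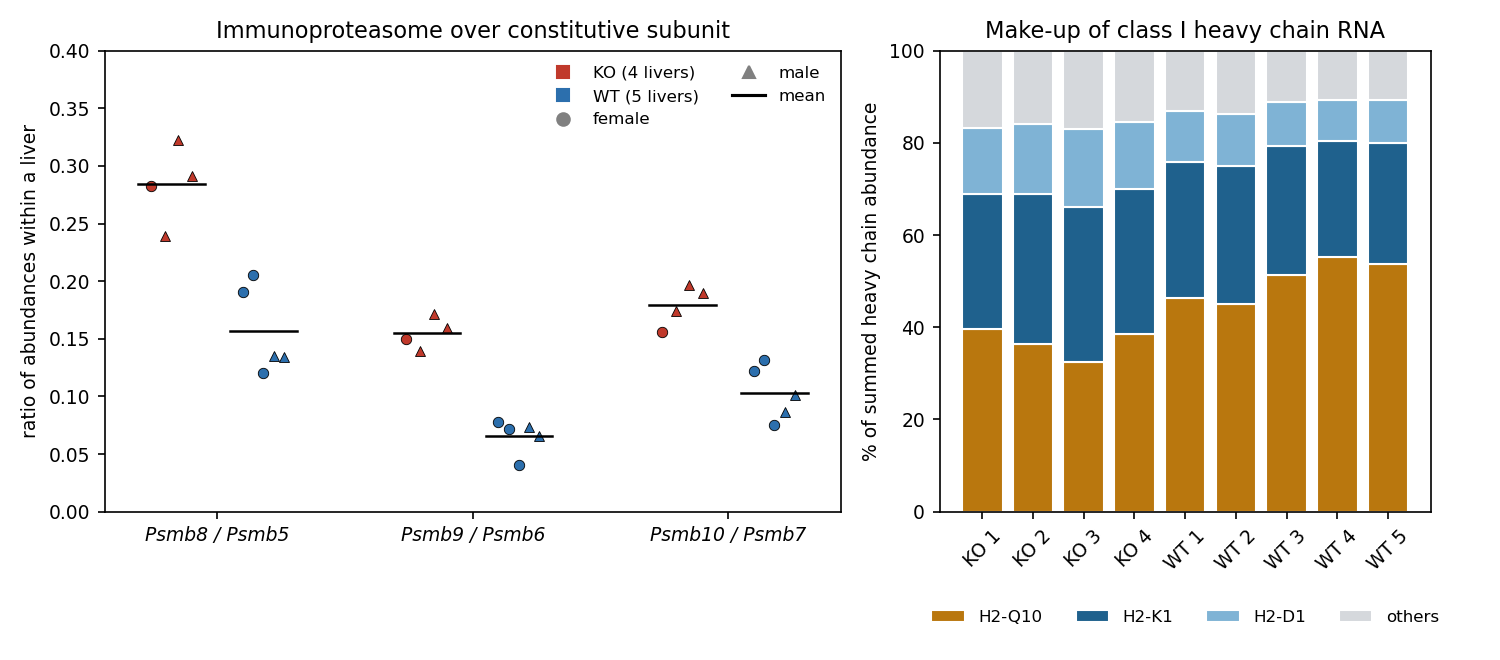
Left, the ratio of each immunoproteasome subunit to the constitutive subunit it replaces in each liver (4 KO in red, 5 WT in blue, circles for females, triangles for males, black line for the mean), with all KO livers above all WT livers. Right, stacked bars of the percent of summed class I heavy chain abundance in each liver, in which H2-Q10 takes 32.5% to 39.7% in KO and 45.1% to 55.3% in WT.

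The genes of peptide transport and loading rose as well. Tap1 stood at 11.3, 8.93, 10.1 and 8.80 in KO, against 5.68, 6.32, 2.98, 5.77 and 5.71 in WT, 1.85-fold higher (limma adjusted p = 0.006). Tap2 averaged 8.15 ± 0.776 in KO and 4.11 ± 0.645 in WT, 1.98-fold higher (limma adjusted p = 0.000288), although the transcript listed for it is annotated as a retained intron. Tapbp averaged 32.3 ± 2.72 in KO and 20.3 ± 1.69 in WT, 1.59-fold higher (limma adjusted p = 0.000445). All 3 were higher in every KO liver than in any WT liver. H2-Ke6, outside both routes, averaged 40.6 ± 3.44 in KO and 48.7 ± 7.09 in WT and was not called (limma adjusted p = 0.117). Of its 31-base words 88.3% also occur in other genes, so its value is uncertain.

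**Figure D4:**
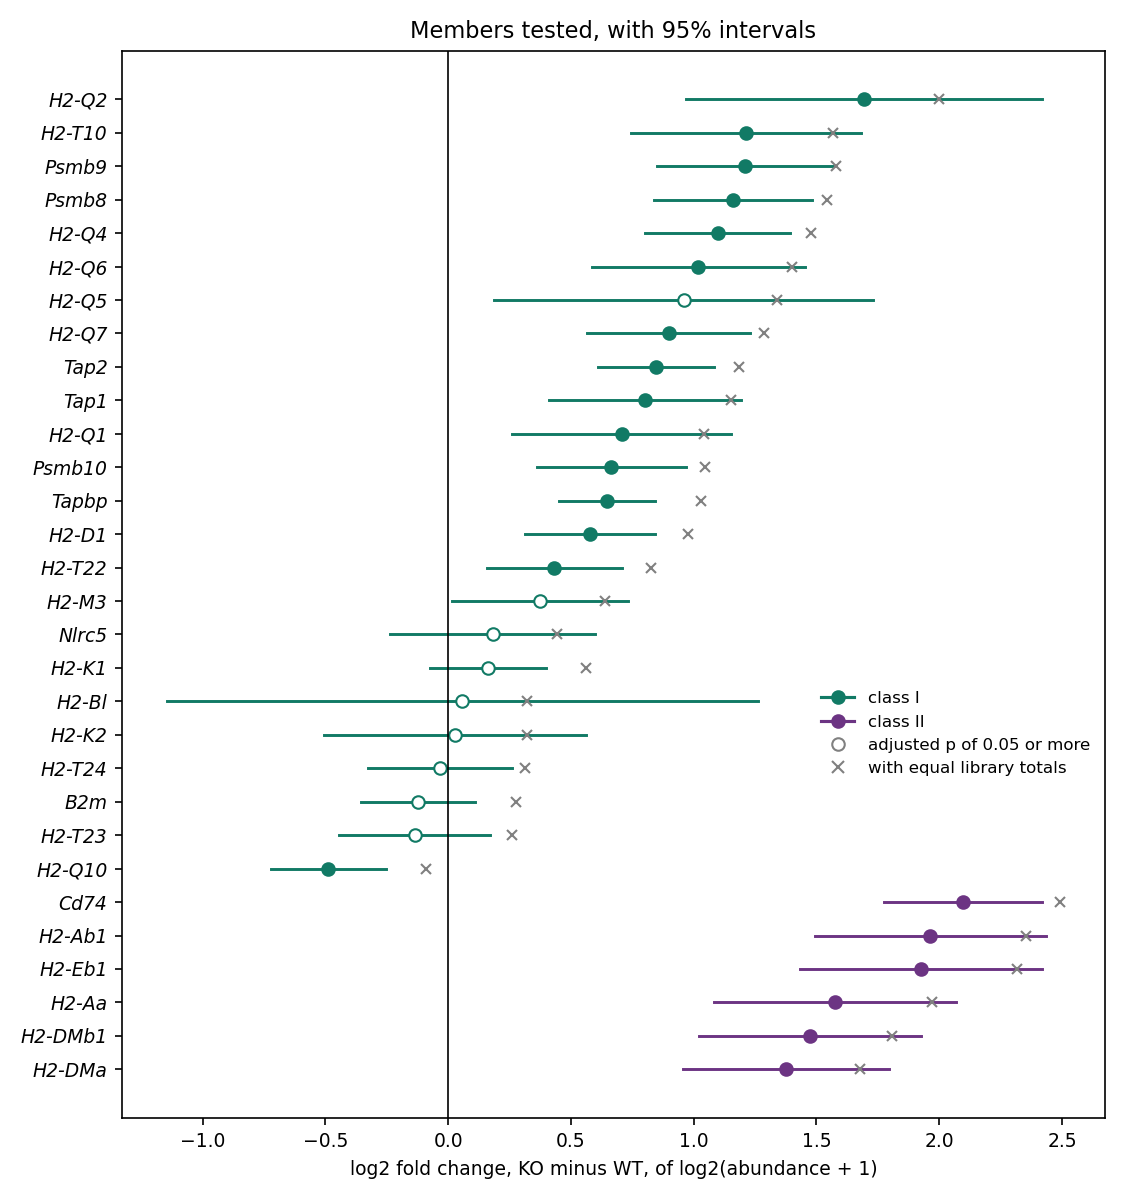
Log2 fold change, KO minus WT, of log2(abundance + 1) for the 24 class I (green) and 6 class II (purple) members tested, with 95% intervals from limma; filled circles are called at an adjusted p of 0.05, open circles are not, and grey crosses give the same value with equal library totals. All class II members lie between 1.38 and 2.10, and class I members spread from -0.49 for H2-Q10 to 1.69 for H2-Q2; every cross lies to the right of its circle.

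With equal totals the median log2 fold change was 1.04 for class I and 2.14 for class II, against 0.66 and 1.75 as deposited. On that scale 17 class I members were called higher and none lower, against 45.4% and 2.72% of all transcripts tested. H2-K1, H2-M3 and H2-Q5 gained a call and H2-Q10 lost its own. All 6 class II members kept theirs. B2m, H2-T23 and H2-T24 changed sign without a call. The 5 ratios taken within a liver do not depend on the scale.

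Most of the members are neighbours. On chromosome 17, 13 of them, 9 class II genes with Psmb8, Psmb9, Tap1 and Tap2, lie within 249 kb (chr17:34092340-34341412, GRCm38, GENCODE M21). H2-Ab1 (chr17:34257689-34269419, plus) and H2-Aa (chr17:34282744-34287823, minus) lie in it, with H2-K1 (chr17:33996017-34000347, minus) before it and H2-D1 (chr17:35262730-35267499, plus) and H2-Q10 (chr17:35470089-35474563, plus) after it. In the interval of 3.51 Mb from H2-K2 to H2-M2, 17 of 25 tested members of the 2 routes were called higher and 1 lower (68.0% and 4.00%), with a median log2 fold change of 0.90. Of the other 70 tested genes of this interval 24 were called higher and none lower (34.3% higher, against 21.4% of all tested transcripts), with a median of 0.23. Of the members on other chromosomes, Cd74 (chromosome 18) and Psmb10 (chromosome 8) were called higher, while B2m (chromosome 2) and Nlrc5 (chromosome 8) were not called.

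**Figure D5:**
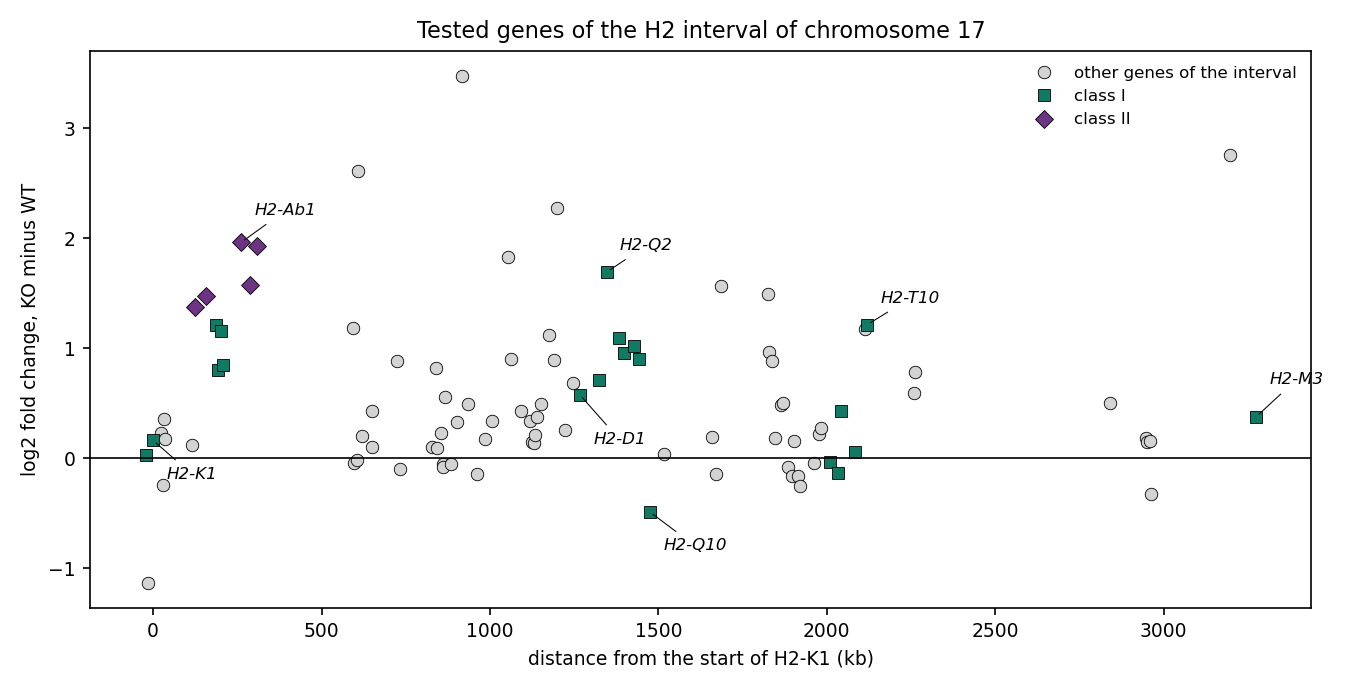
Log2 fold change, KO minus WT, of each tested gene of the H2 interval of chromosome 17 against its distance in kb from the start of H2-K1; green squares are class I members, purple diamonds class II members and grey circles all other genes there. The class II genes and the immunoproteasome and transporter genes sit close together near the left end, all above 0, whereas H2-Q10, at -0.49, is the lowest class I point.

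Sites for the seed of miR-122-5p were sought in the 3' UTRs of the members. Of 27 tested members with an annotated 3' UTR of at least 50 bases, 2 held a match of 7 or 8 bases (7.41%), against 13.1% of 9834 tested transcripts. Both were 8-base sites in genes that were not called, Nlrc5 (chr8:94527215-94527222, plus) and H2-T24 (chr17:36006534-36006541, minus). Sites of 8 bases alone were held by 7.41% of these members and by 2.51% of the 9834 transcripts. The 2 comparisons point in opposite directions, and counts this small cannot set the members apart. Ciita, under the filter, held an 8-base site (chr16:10526067-10526074, plus), 325 bases into a 3' UTR of 2676 bases. The sites are shown because they are the members' longest matches to the seed, with the match in capitals (GENCODE M21, GRCm38, direction of the gene).
Nlrc5: ctaaactcacaACACTCCAtatcaaatgat
H2-T24: gctgtcctcatACACTCCAgaagagggagt
Ciita: ccttctcttcgACACTCCAggacagaacga

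Ciita also held a 7-base match (chr16:10526589-10526595, plus). A 6-base match, CACTCC, was found in H2-Ab1 and H2-Ke6 and, under the filter, in H2-Ob and H2-Eb2. A match of 7 bases has an A on either side of this word, and one of 8 bases an A on both. Apart from H2-Ab1, no member with a mean of at least 1 that was called higher or lower had a match in the 3' UTR of the listed transcript, where one is annotated.

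Other genes of the 2 routes are read against the shares of all tested transcripts, 21.4% higher and 14.5% lower as deposited, and 45.4% and 2.72% with equal totals. In a list of 18 genes of peptide supply and loading, all tested, 5 were called higher and 2 lower, with a median log2 fold change of -0.01 (11 higher and none lower with equal totals). The proteasome activator subunits Psme1 (83.8 ± 10.5 in KO, 59.9 ± 5.56 in WT, 1.399-fold) and Psme2 (80.5 ± 9.26 in KO, 64.7 ± 6.08 in WT, 1.24-fold) and the tapasin relative Tapbpl (1.44-fold) rose. Erap1, which trims peptides in the endoplasmic reticulum, stood at 26.6 ± 1.90 in KO and 36.6 ± 3.07 in WT and was called lower (limma adjusted p = 0.00282), a call lost with equal totals (0.776). In the list of the class II route 4 of 7 tested genes were called higher and none lower, with a median of 0.27. These were the endosomal protease cathepsin S, Ctss (76.8 ± 11.1 in KO, 37.9 ± 6.81 in WT, limma adjusted p = 0.000578), the thiol reductase Ifi30 (32.0 ± 1.39 in KO, 16.7 ± 2.11 in WT), Lgmn and Ctsb. Ctsl and Ctsd were not called.

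Of 8 tested MHC-like molecules 2 were called lower and none higher, and with equal totals 1 (Mr1) was called higher and 1 (Raet1e) lower. Raet1e, a ligand of the activating receptor NKG2D of natural killer cells, stood at 2.09 ± 0.879 in KO and 9.04 ± 1.85 in WT (limma adjusted p = 0.000304; 0.000932 with equal totals). Azgp1, a secreted class I-like protein, stood at 1048 ± 68.0 in KO and 1591 ± 181 in WT (limma adjusted p = 0.00191), a call lost with equal totals (0.248). Among 20 tested regulators 4 were called higher and 2 lower, with a median log2 fold change of 0.13 (10 higher, Ifngr2 among them, and none lower with equal totals), shares near those of all transcripts. Among the 20, Rfx5, a subunit of the X box factor, passed the filter through KO alone, and was called with equal totals (limma adjusted p = 0.00921) but not as deposited (0.0607). The interferon gamma receptor chain Ifngr1 was 1.99-fold higher (24.8 ± 1.71 in KO, 12.5 ± 1.15 in WT, limma adjusted p = 4.22e-05), whereas Ifngr2 and Irf1 were not called (0.381 and 0.523), and interferon gamma itself, Ifng, averaged 0.0343 in KO and 0.0772 in WT. Irf8, a factor of myeloid cells, stood at 4.95 ± 0.565 in KO and 2.15 ± 0.349 in WT, and Jak1 and Rela were also called higher. Irf9 and Ifnar2 were called lower, calls that were lost with equal totals (limma adjusted p = 0.750 and 0.979).

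Markers of the cells that make class II moved with it in part. The counts of calls here stand against 21.4% higher and 14.5% lower among all tested transcripts. All 11 tested of 12 macrophage and Kupffer cell markers were called higher, 2 of them (Ccr2 and Ly6c2) passing the filter through KO alone, and the summed level of the 12 ranged from 432 to 508 in KO and from 233 to 306 in WT, 1.85-fold apart in means. Clec4f, a Kupffer cell receptor, stood at 71.9 ± 8.49 in KO and 49.3 ± 5.88 in WT, and the lysozyme gene Lyz2 at 199.8 ± 9.39 in KO and 85.0 ± 5.31 in WT. The 4 markers of all leukocytes were called higher, with sums of 92.9 to 111 in KO and 34.2 to 55.1 in WT. Beside these, the sum of the 3 class II chains was 3.46-fold higher and that of the leukocyte markers 2.36-fold. Single macrophage and Kupffer cell markers ranged in the ratio of means from 1.46-fold (Clec4f) to 8.57-fold (Cx3cr1, under the filter). Single leukocyte markers ranged from 2.20-fold (Tyrobp) to 3.48-fold (Coro1a). Of 10 dendritic cell markers 1, Batf3, was tested and called, passing through KO alone, and the sum of the 10 ranged from 5.25 to 7.13 in KO and from 2.53 to 4.06 in WT. Siglech (0.183 in KO, 0.620 in WT) and Zbtb46 (0.737 in KO, 0.834 in WT) had lower means in KO, and the rest of the list higher ones. Of 7 B cell markers 1 was tested and not called, and their summed level was 2.55 to 3.73 in KO livers and 2.21 to 3.75 in WT livers. The T and NK cell markers had summed levels of 3.39 to 8.50 in KO livers and of 2.04 to 4.91 in WT livers, with 1 of 8, Trac, tested (through KO alone) and not called. All 5 tested of 6 cholangiocyte markers were called higher, 4 of them passing through KO alone (sums of 566.5 to 941 in KO and 33.3 to 60.4 in WT). These sums are nearly those of 1 gene, Spp1, at 547 to 918 in KO and 31.3 to 57.3 in WT. Endothelial markers (1 of 6 higher, 1 lower) and hepatocyte markers (none of 6 called) had overlapping sums. No marker of these lists was at 0 in all libraries. Of the co-stimulatory ligands, 2 of 6 were tested, and Cd86 was called higher (1.497-fold, limma adjusted p = 0.0295) and Cd274 was not (0.924). The part of any of these cells in the class I and class II differences was not tested.

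The class II difference was present among males alone. In the 3 KO males against the 2 WT males the log2 fold change was 2.27 for Cd74, 2.31 for H2-Ab1, 2.31 for H2-Eb1 and 2.04 for H2-Aa, all called (limma adjusted p of 0.00121 or less), where 21.2% of transcripts were called. In males 12 class I members were called higher and 1 lower, against 13.5% and 7.65% of all transcripts tested there. H2-Q10 kept its call there (limma adjusted p = 0.0488). Of 31 tested members none differed between the sexes in its genotype effect at an adjusted p of 0.05 (limma interaction term), 4 had an unadjusted p under 0.05, and KO holds 1 female.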

How the data were processed

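Liver polyA RNA of 4 KO and 5 WT mice was measured. The submitters' processing notes name kallisto, sleuth and the build mm10, without versions or settings. The deposited table gives, for 30519 transcripts of 30518 genes, a normalised abundance per library (a signal, corrected for transcript length and scaled between libraries), and the authors' sleuth p-value and q-value. It also gives the authors' coefficient on a natural log scale, which runs WT minus KO and was turned to log2, KO minus WT. Gene symbols and positions were taken by Ensembl ID from GENCODE M21 (GRCm38), which held 98.5% of the IDs.

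Since the abundances are no counts, log2(abundance + 1) was fitted with limma 3.58.1 in R 4.3.3 (genotype alone, variance trend) for all 10950 transcripts with a mean of at least 1, with Benjamini-Hochberg adjustment and a threshold of 0.05. A fold change on this scale understates that of low genes; folds named as ratios of means use the abundances. On simulated data of 10950 genes with 200 changed, 83% of changes of log2 size 1 and 99% of size 2 were recovered, with 14 false among 196 calls. The simulated noise was independent between genes, few genes changed and libraries did not differ in scale. These rates therefore need not hold for the calls in the livers. Shared sequence was counted as 31-base words found in transcripts of other genes. Normalised reads were read from the authors' mean log observation, an approximate reading: of the coefficients of 13431 transcripts it matched 99.9% within 0.05 but only 0.156% within 0.01. Depth per library was not recovered, so no counting intervals are given.

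All members of the rule could be named, and other genes by list, with up to 6 a list planned. More than 6 were named from the lists of regulators and of peptide supply and loading. Members, lists, ratios and promoter words were chosen with earlier results of these data known. Alternatives were other pseudocounts and filters, equal library totals, sex as a covariate, males alone, a replicate block, limma without trend, the authors' q-values and leaving out each library. Leaving out WT replicates 1 and 2 together and the interaction of genotype with sex were added after the data were seen.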

Additional observations from a re-analysis of the deposited data

Results flagged for a closer look

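Of 72 sets of values (a tested member, or a ratio of genes, in 1 genotype) 4 held a library far from the others by Dixon's criterion, which chance alone meets in about 1 in 20 such sets. H2-Q2 reached 3.76 in WT replicate 5, against 0.436 to 1.37 in the other WT livers. Psmb10 reached 34.7 in KO replicate 4, against 25.5 to 26.6 in the other KO livers. WT replicate 3 was low in 2 genes, with Psmb9 at 5.16 against 8.73 to 9.58 in the other WT livers and Tap1 at 2.98 against 5.68 to 6.32. Of the 31-base words of Psmb9, 13.8% also occur in Tap1, so part of their reads can be shared. Psmb10, Psmb9, Tap1 and H2-Q2 were each called without the library in question, since all 4 kept their calls in every fit that left out 1 library.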

How the results depend on the processing

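Of the 21 members called, 19 kept their call whichever single library was left out, the exceptions being H2-Q1 and H2-T22. Without 1 library the calls numbered 3114 to 4054 over all transcripts, 13 to 17 in class I and 6 in class II. Over all transcripts, 2589 were called with a mean of at least 5 (1231 higher, 1358 lower) and 2336 in males alone, against 3934 with all libraries. Class II calls rose to 10 with a mean of at least 0.1 and to 10 with no filter. With equal totals the split over all transcripts was 5030 higher and 301 lower, against 2345 and 1589 as deposited. The authors' q-values lost H2-Q1, and males alone lost H2-Q1 and H2-Q2. The other alternatives for pseudocount, filter, trend and sex covariate lost no called member that they tested. Without WT replicates 1 and 2 together, H2-Q1 was lost.

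Only members without a call changed sign, and the cause was not tested. With equal totals the log2 fold change was 0.28 for B2m, 0.14 for H2-Ke6, 0.26 for H2-T23 and 0.31 for H2-T24. In males alone it was 0.10 for H2-T23 and 0.13 for H2-T24, and for H2-T24 it was 0.069 with sex as a covariate and 0.08 without WT replicates 1 and 2 together. For H2-Bl it was -0.029 with a pseudocount of 5. With 1 library left out it ranged from -0.39 to 0.31 for H2-Bl, from -0.17 to 0.14 for H2-K2 and from -0.10 to 0.053 for H2-T24.

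Deviations of same-numbered livers correlated at 0.229, 0.082, -0.184 and 0.113, and those of livers with unlike numbers at -0.232 to 0.187. These few values cannot decide whether the replicate numbers pair the animals, since the labels do not name the litters. A replicate block called 3602 transcripts, 16 class I and 6 class II members, against 4054, 17 and 6 for the same libraries without the block, and H2-K2 stood at -0.17 in both fits.

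Depth limits the 23 members under the filter, most of which were at or near 0, and shared sequence limits single heavy chains and H2-Ke6.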
